A study of Mus musculus with 28 samples.

Results

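Among the 14 control islet libraries of this mouse study, 3 held little insulin RNA. They are saline replicate 4, S961 replicate 2 and S961 replicate 8, called saline 4, S961 2 and S961 8 here. They were chosen by 1 measured value, an Ins2 level under 14 log2 CPM (the base-2 logarithm of CPM, a read count scaled to the size of its library) in the deposited matrix, out of 14 control libraries and 28 libraries in all. The other 11 control libraries, 5 after saline and 6 after S961, served as the reference. Because the members were chosen on these libraries, no test was made of the 3 against the other 11, and every such value is a description. Tests were made only in the 14 βKlf6KO libraries, which the choice did not use, and in the group comparisons with and without the 3 libraries.

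The control mice carried Klf6 alleles flanked by loxP sites and no Cre (Klf6flox/flox;Ins1+/+). The βKlf6KO mice carried the same floxed alleles and Cre recombinase in 1 Ins1 allele (Klf6flox/flox;Ins1Cre/+), which acts in β cells and leaves 1 intact Ins1 allele. All were males of 10 to 12 weeks on a background labelled C57Bl6 and 129sv, and they received saline (6 control and 6 βKlf6KO mice) or S961 (8 and 8), a peptide antagonist of the insulin receptor. Each library was 1 mouse, made from 250 ng of RNA of 120 to 150 hand-picked islets kept overnight in culture, with an RNA quality number of 8.2 to 9.3 over all preparations. Poly(A) RNA was read as single ends of 125 bases.

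Islets hold several endocrine cell types. β cells make insulin, which rodents encode in Ins2 and Ins1, together with the peptide amylin (Iapp), and store it in dense granules. α cells make glucagon (Gcg), δ cells somatostatin (Sst) and PP cells pancreatic polypeptide (Ppy), and Pyy encodes the related peptide YY. Insulin is folded in the endoplasmic reticulum (ER), and genes of the unfolded protein response respond when that folding is strained. Klf6 encodes a zinc-finger transcription factor of the KLF family. GC content, the percentage of G and C bases in a transcript, is known to affect how efficiently a fragment is copied and sequenced.

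The 28 libraries held 28868638 to 45001633 reads over the listed genes, and saline 4, S961 2 and S961 8 held 35751763, 35165436 and 29934611. At that depth 3 reads, the most that a count of 0 allows, came to 0.069 to 0.105 CPM, counting error alone. Klf6, the targeted gene, was not lower in the libraries labelled as its knockout. It averaged 7.0 ± 0.42 log2 CPM (SD, n = 6) in control and 6.97 ± 0.26 (n = 6) in βKlf6KO libraries after saline, and 6.94 ± 0.72 and 7.22 ± 0.51 (n = 8 each) after S961. Without the 3 libraries the control means were 6.87 ± 0.30 (n = 5) and 6.66 ± 0.43 (n = 6). The values are per gene and do not separate deleted exons from kept ones, so the name βKlf6KO refers to the libraries so labelled.

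The coding sequences of the genes that the results turn on differ in base composition, which is why their first 150 bases are shown here. They are read from GENCODE M21 on GRCm38, 5′ to 3′ on the coding strand, in lower case, with the 40 bases of highest GC content in capitals. Ins2 lies on the minus strand at chr7:142678656-142743381, Ins1 on the plus strand at chr19:52264297-52265476, Iapp on the plus strand at chr6:142298423-142303961 and Gcg on the minus strand at chr2:62474530-62483650.
Ins2: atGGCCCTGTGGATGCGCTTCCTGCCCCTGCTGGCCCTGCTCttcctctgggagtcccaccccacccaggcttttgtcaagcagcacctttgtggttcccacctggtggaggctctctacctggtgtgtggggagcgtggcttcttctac
Ins1: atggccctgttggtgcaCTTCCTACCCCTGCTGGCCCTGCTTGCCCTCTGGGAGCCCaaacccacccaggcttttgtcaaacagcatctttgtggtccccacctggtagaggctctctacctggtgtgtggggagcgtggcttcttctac
Iapp: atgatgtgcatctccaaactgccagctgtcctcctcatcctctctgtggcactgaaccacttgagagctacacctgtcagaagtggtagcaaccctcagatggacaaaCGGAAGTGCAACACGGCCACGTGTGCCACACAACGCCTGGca
Gcg: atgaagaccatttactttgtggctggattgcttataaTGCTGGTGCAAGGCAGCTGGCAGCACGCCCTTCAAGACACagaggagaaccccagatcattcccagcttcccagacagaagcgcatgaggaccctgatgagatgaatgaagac
The capitals held 72.5% GC in Ins2, 70.0% in Ins1, 65.0% in Iapp and 62.5% in Gcg. Over the whole longest transcript Ins2 had 53.6%, Ins1 48.2%, Gcg 44.8% and Iapp 40.5% GC. For Ins2 that transcript was Ins2-209, with 918 bases in 5 exons. Whether it is the main Ins2 transcript in islets was not checked. Over the coding sequence alone Ins2 had 61.0% and Ins1 59.6%, against 51.1% for Iapp and 51.2% for Gcg.

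Ins2 stood at 13.16 log2 CPM in saline 4, 12.31 in S961 2 and 13.57 in S961 8. The other saline controls lay between 15.73 and 16.67 (median 16.30), and the other S961 controls between 15.33 and 17.24 (median 16.01). The highest value inside the limit of 14 was thus 13.57 and the lowest outside it 15.33, with no control library between them. The βKlf6KO libraries ranged from 15.25 to 16.50 after saline and from 14.22 to 16.50 after S961, so the 3 values were also the lowest of all 28 libraries. Against the median of the other controls of the same treatment, Ins2 was 8.81-fold lower in saline 4, 13.0-fold lower in S961 2 and 5.43-fold lower in S961 8. As a share of reads, Ins2 took 0.856% (95% Wilson interval 0.853 to 0.860%), 0.429% (0.426 to 0.431%) and 1.16% (1.15 to 1.16%), against 4.15 to 14.6% in the other controls. Those intervals cover counting error only, and reads without molecular identifiers are not independent molecules. In whole islets, fewer β cells and less insulin RNA per β cell cannot be told apart. How the low share of Ins2 reads went with transcript GC content is described below, and its cause was not tested.

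The sample descriptions carry a number that is read here as the sequencing lane, and the 3 libraries were in lanes 6, 5 and 7. Each shared its lane with 6 other libraries, whose Ins2 levels were 15.33 to 16.60 beside saline 4, 15.43 to 17.24 beside S961 2 and 15.73 to 16.37 beside S961 8. None of the lanes was low as a whole.

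Ins1, the second insulin gene, was low in the same 3 libraries. Its levels were 12.67, 12.05 and 12.14 log2 CPM in saline 4, S961 2 and S961 8, against 13.62 to 15.24 in the other 11. That was 3.14-, 6.49- and 6.07-fold lower than the median of the same treatment. Ins1 and Ins2 have nearly identical stretches, so their reads may have been split unevenly between them. Iapp was not low. It stood at 15.14, 15.55 and 15.08 log2 CPM, inside or at the edge of the range of the other controls (14.95 to 15.55). The log2 ratio of Ins2 to Iapp was accordingly -1.98, -3.25 and -1.51, below its range of -0.10 to 2.10 in the other controls. These ratios are not per transcript length, so only their difference between libraries is read.

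The α-cell hormone was not low with insulin, and the peptides Ppy and Pyy were low in all 3 libraries. Gcg stood at 15.88, 15.50 and 14.80 log2 CPM in saline 4, S961 2 and S961 8, against a median of 15.12 and a highest value of 15.34 in the other 11. Saline 4 and S961 2 were thus above every other control and S961 8 was within their range. Sst was at 9.22, 8.57 and 8.23 against 8.87 to 9.94, inside the range in saline 4 and below it in both S961 libraries. Ppy was at 8.45, 6.54 and 7.33 against 8.73 to 11.52, and Pyy at 7.53, 6.63 and 6.92 against 7.79 to 9.28. Both peptides were below all other controls in all 3 libraries. Klf6 stood at 7.67, 7.11 and 8.42 log2 CPM against 6.18 to 7.34, above every other control in saline 4 and S961 8 but not in S961 2. The log2 ratio of Iapp to Gcg, the main non-insulin peptides of β and α cells, was -0.74, 0.05 and 0.27 against -0.31 to 0.95, so it was out of range only in saline 4.

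**Figure D1:**
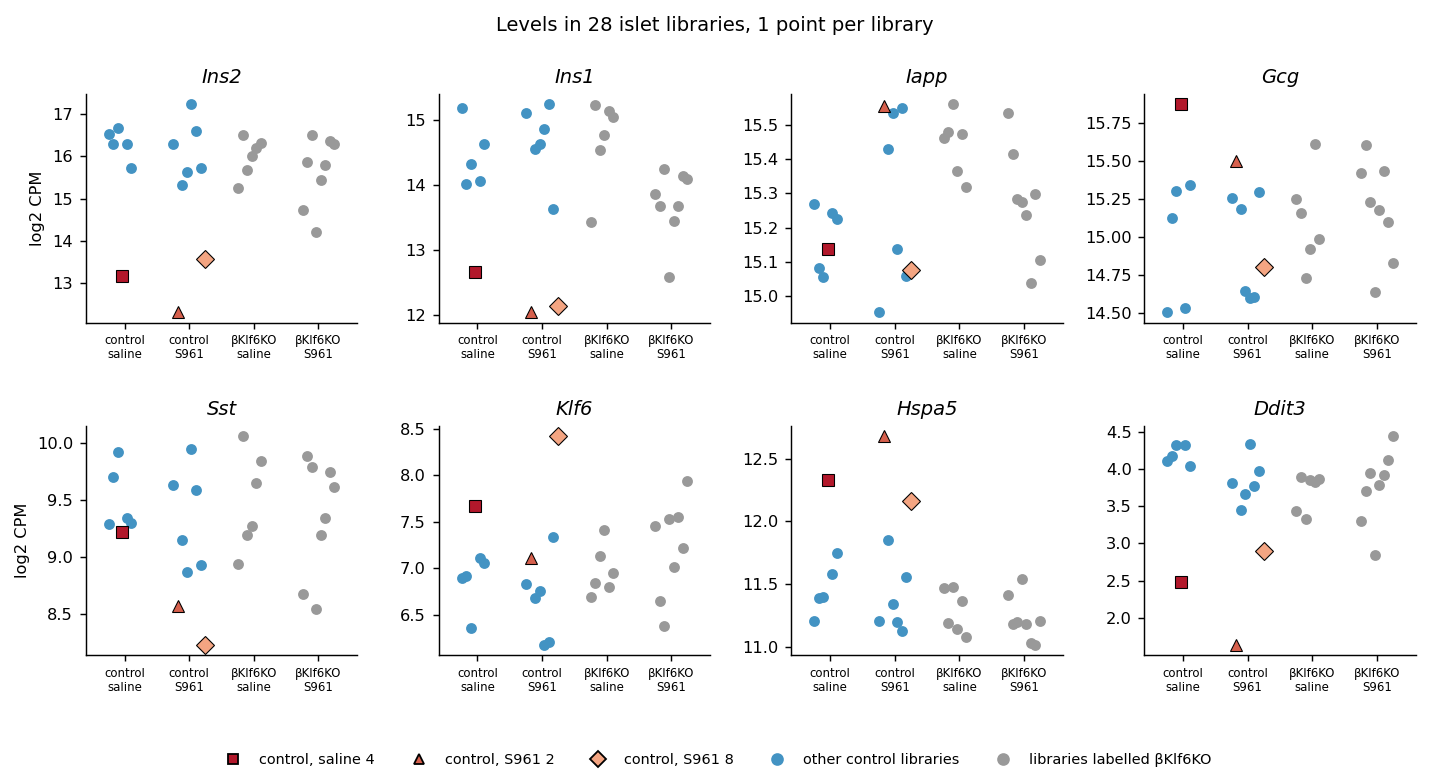
Levels of 8 genes (log2 CPM, vertical axis of each panel) in the 28 libraries, grouped by genotype and treatment, with the 3 low-Ins2 control libraries marked. Ins2 and Ins1 of the marked libraries lie below all other controls, Iapp lies with them, and Gcg lies above them in saline 4 and S961 2.

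Insulin was part of a shift that reached most of the transcriptome. Of 13591 genes, all 3 libraries stood above all of the other 11 controls for 3846 (28.3%) and below all of them for 4037 (29.7%). Among genes of at least 4 log2 CPM, the 10 with the widest gap above were Zfp984, Gnpnat1, Eif3j1, Uchl5, Fam199x, Top2b, Fbxo30, Ipo7, Socs2 and Naa50. Gnpnat1, which makes a building block of protein sugar chains, stood at 7.50, 7.52 and 7.53 log2 CPM against 5.69 to 6.51. Top2b, a DNA topoisomerase, stood at 8.28, 8.55 and 8.27 against 6.76 to 7.40. Ipo7, a nuclear import receptor, stood at 9.17, 9.33 and 9.28 against 7.68 to 8.32. All of these genes were higher by more than the whole spread of the other controls, and none is known as an islet hormone gene.

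The 10 with the widest gap below were Enho, Hgfac, Ins2, Emilin1, Rabac1, Ppp1r37, Ptov1, Gnb2, Pkdcc and Rpl41. Enho, which encodes the secreted peptide adropin, stood at 2.32, 1.51 and 2.37 log2 CPM in saline 4, S961 2 and S961 8 against 4.43 to 6.46. Gnb2, a G-protein β subunit made in most cells, stood at 3.13, 2.20 and 3.40 against 4.99 to 7.09. Rpl41, a ribosomal protein, stood at 5.06, 4.20 and 5.40 against 6.98 to 8.46. Ins2 was the only islet hormone among the 10, and genes active in most cells were low to a like degree. The transcripts of these 10 had 53.6 to 65.6% GC (median 59.7%), those of the 10 above 36.5 to 45.4% (median 39.1%), and the median over all genes was 49.3%.

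The position of a gene in these libraries followed its transcript GC content. A gene's deviation is its log2 level minus the median of the other control libraries of the same treatment. Across 13584 genes, Spearman's correlation of the deviation with GC content was -0.82 in saline 4, -0.84 in S961 2 and -0.77 in S961 8. In the other 11 controls it ran from -0.76 to 0.74, and genes are not independent replicates. The run was steeper than in any other control. The GC slope, the log2 change per 10 percentage points of GC, was -1.33, -1.68 and -1.08 in saline 4, S961 2 and S961 8 against -0.60 to 0.59. In the lowest of 20 bins of GC the median deviation was 1.07, 1.37 and 0.90, and in the highest it was -1.88, -2.40 and -1.57. In that highest bin 569 of 680 genes (83.7%) were below all other controls in all 3 libraries, and in the lowest 540 of 679 (79.5%) were above.

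**Figure D2:**
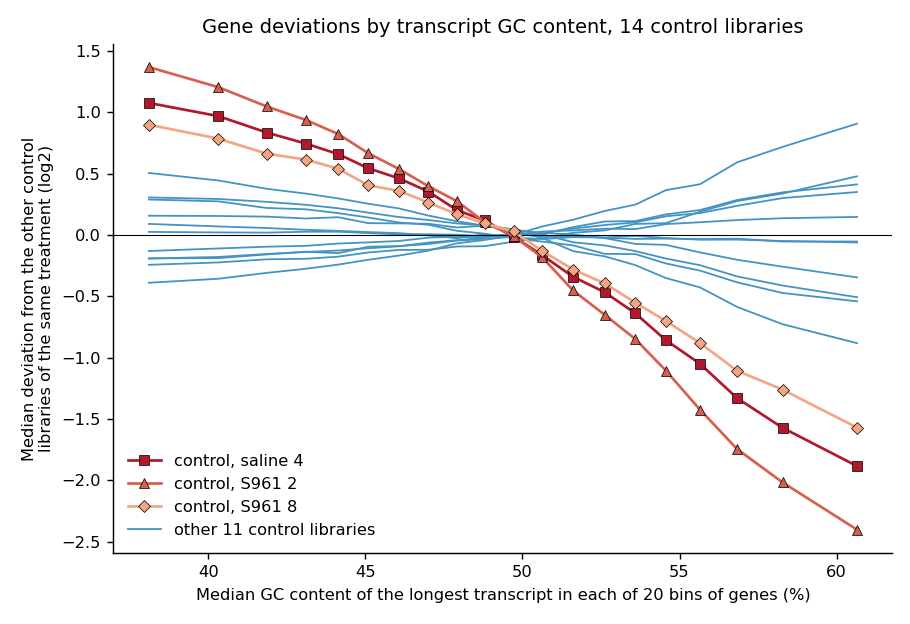
Median deviation of genes (log2, vertical axis) in 20 bins of transcript GC content (percent, horizontal axis), 1 line per control library. The 3 low-Ins2 libraries run from about 1 in the lowest bin to between -1.57 and -2.40 in the highest, more steeply than the 11 others.

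Setting each gene against genes of like GC left insulin low. From each level, the library's median departure from the gene means over all 28 libraries, within the gene's GC bin, was subtracted. A GC-corrected deviation is the deviation taken on these corrected levels. For Ins2 it was -2.48 in saline 4, -2.81 in S961 2 and -1.86 in S961 8, against a lowest value of -0.69 in the other controls. These values depend on the longest Ins2 transcript, of 53.6% GC. Genes in that bin had a median deviation of -0.64, -0.85 and -0.55, and bins of higher GC were more negative. For Ins1 it was -1.90, -2.98 and -2.79, against a lowest value of -1.36. Iapp, which was level before, came out at -1.01, -0.85 and -0.92, below the other controls (lowest -0.39), since genes as poor in GC as Iapp were mostly higher. Gcg came out at 0.24, -0.04 and -0.51, Sst at 0.77, 0.52 and -0.36, Ppy at -1.25, -2.13 and -2.03 and Pyy at 0.17, -0.30 and -0.70. None of these 4 had all 3 values outside the range of the other controls. Klf6 was at -0.05, -0.45 and 1.24, and it overlapped too. The counts of genes outside the range of the other controls went down to 1913 above (14.1%) and 2148 below (15.8%) of 13584.

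What the correction left to a gene depended on which GC content was used. With GC content of the coding sequence, an alternative chosen after seeing the data, Ins2 stayed low at -1.85, -2.0 and -1.32 in saline 4, S961 2 and S961 8. Ins1 then had -0.25, -1.17 and -1.75 and Iapp -0.08, 0.19 and -0.26, and both overlapped the other controls. Gcg had 0.70, 0.52 and -0.15 by the same measure.

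Within genes of like high GC, the run differed with the number of exons. Among the genes of the highest of 5 GC classes, the median deviation of genes with 1 exon was -0.79, -1.0 and -0.76 in saline 4, S961 2 and S961 8. For genes with 17 or more exons it was -1.56, -2.02 and -1.28, although their median GC content was about the same (57.7 and 57.6%). In the next class the medians were -0.29, -0.32 and -0.30 with 1 exon, -0.60, -0.87 and -0.49 with 9 to 16 and -0.53, -0.68 and -0.45 with 17 or more. In these 2 classes genes with 1 exon were thus less low than the others. In the middle class they were not, with -0.07, -0.05 and -0.08, against 0.04, 0.13 and 0.05 with 17 or more exons. Transcript length moved with exon number, from a median of 1832 bases with 1 exon to 4618 with 17 or more in the highest class, and the part of length was not tested. The 10 genes with the widest gap above after the GC correction, chosen after their values were seen, were Arf6, Irf2bpl, Fiz1, Pawr, Rhob, Tsc22d1, Kti12, Cited2, Hnrnpa0 and Insm1. Of these, 6 had 1 exon, against 1012 of 13584 genes (7.45%). Insm1, a zinc-finger factor of endocrine cells with 1 exon, stood at 8.47, 8.96 and 8.14 log2 CPM against 7.13 to 7.87, above all other controls despite 62.0% GC. The 10 with the widest gap below after the correction, likewise chosen after the fact, were Ins2, Ttr, Rpl41, Atp5g1, Dlg4, Dad1, Ndufa7, Rpl18, Gpx2 and Anapc13. They included the ribosomal protein genes Rpl41 and Rpl18, a respiratory-chain gene and an ATP-synthase gene beside insulin, with 46.5 to 54.7% GC.

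**Figure D3:**
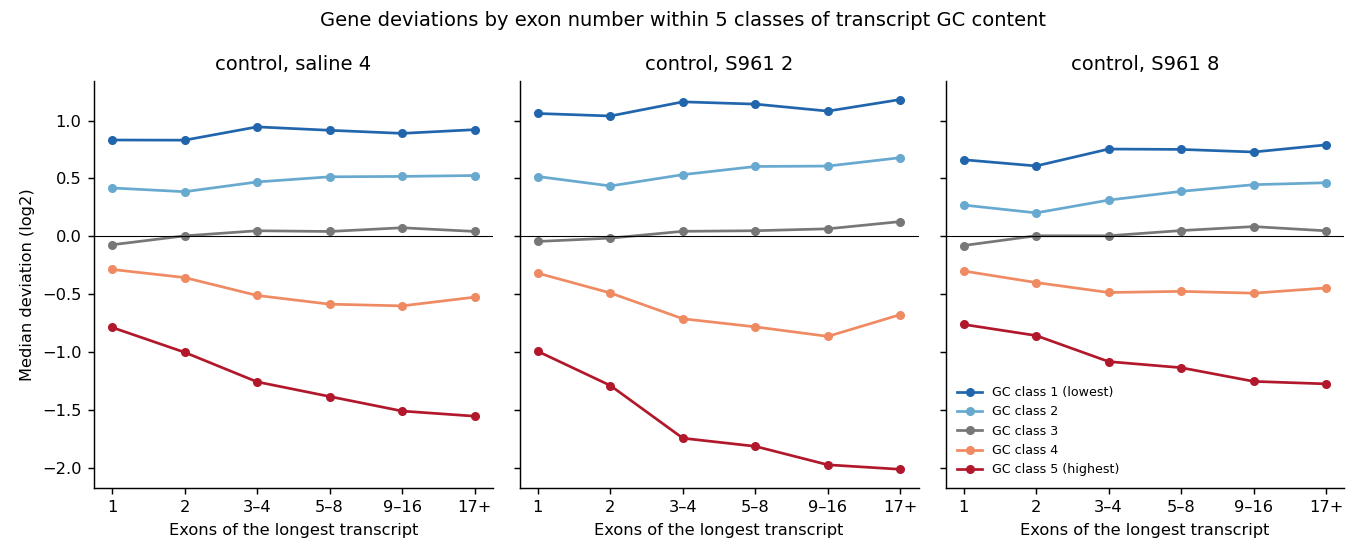
Median deviation (log2, vertical axis) of genes by exon number (horizontal axis) within 5 classes of transcript GC content, for the 3 low-Ins2 control libraries. In the class of highest GC, genes with 1 exon lie between -0.76 and -1.0 and genes with 17 or more exons between -1.28 and -2.02.

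The 3 libraries resembled each other across treatments. Across 13584 genes the deviations of saline 4 had a Spearman correlation of 0.917 with those of S961 2 and 0.840 with those of S961 8, which were measured against different reference libraries. After the GC correction the correlations were 0.733 and 0.598. The summed CPM, which the authors' scaling factors set, was 1068700, 1185200 and 1050700 in the 3 libraries.

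Whether insulin RNA follows the GC slope was tested in the 14 βKlf6KO libraries. For each library the slope was taken relative to the median of those 14. Ins2 was lower where the slope was more negative, with Pearson's r = 0.970 (permutation p = 1.0e-05, the smallest that 100000 resamples can give, adjusted 6.0e-05) and Spearman's rho = 0.938 (adjusted permutation p = 1.2e-04). Both measures come from the same library. Without the 2 libraries farthest from the median Ins2, βKlf6KO S961 replicates 4 and 1, r was 0.930. Within saline (n = 6) r was 0.961 (exact permutation p = 0.00139, adjusted 0.0167), and within S961 (n = 8) it was 0.988 (exact permutation p = 2.7e-04, adjusted 0.00327). Each of the 4 lanes held only 3 or 4 of these libraries, too few for a value within a lane. With both measures centred on their lane mean r was 0.879. The 11 other controls, for description, gave r = 0.977.

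In the same family of 12 measures, Sst, Ddit3 and Ins1 went with Ins2 and mt-Co1 went against it. Sst had r = 0.928 (adjusted permutation p = 6.0e-05), rho = 0.877 (adjusted permutation p = 6.6e-04) and r = 0.851 without the 2 farthest libraries. Ddit3, a transcription factor of the stress response, had r = 0.857 (adjusted permutation p = 4.5e-04), rho = 0.824 (adjusted permutation p = 0.00189) and r = 0.659 without them. The mitochondrial gene mt-Co1 had r = -0.874 (adjusted permutation p = 2.4e-04), rho = -0.815 (adjusted permutation p = 0.00189) and r = -0.718 without them. Ins1 had r = 0.755 (adjusted permutation p = 0.00324), rho = 0.736 (adjusted permutation p = 0.00857) and r = 0.658 without them. These 4 genes include a δ-cell hormone and a mitochondrial transcript, so the relation was not limited to insulin. The ER chaperone Hspa5 had r = -0.687 (adjusted permutation p = 0.0114), but rho = -0.530 did not pass (adjusted permutation p = 0.104), and r was -0.466 without the 2 libraries, so this relation rested on them. With both measures centred on their lane mean, r was 0.834 for Sst, 0.550 for Ins1, 0.534 for Ddit3, -0.773 for mt-Co1 and -0.131 for Hspa5. Within saline (n = 6), Ddit3 with r = 0.857 and mt-Co1 with r = -0.655 did not pass (adjusted exact permutation p = 0.117 and 0.297), nor did Hspa5 with r = -0.751 (0.223). Under quantile normalization Ins1 with r = 0.537 and Hspa5 with r = -0.367 did not pass (unadjusted permutation p = 0.0750 and 0.204). For Gcg, Iapp, Klf6, Fos, Malat1 and Actb, r was 0.168, -0.144, -0.302, 0.444, -0.157 and 0.492, and none passed (adjusted permutation p of r at least 0.123). Under quantile normalization, however, Iapp had r = -0.89 (unadjusted permutation p = 0.00271, over 14 libraries) and Actb r = 0.58 (0.0245).

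**Figure D4:**
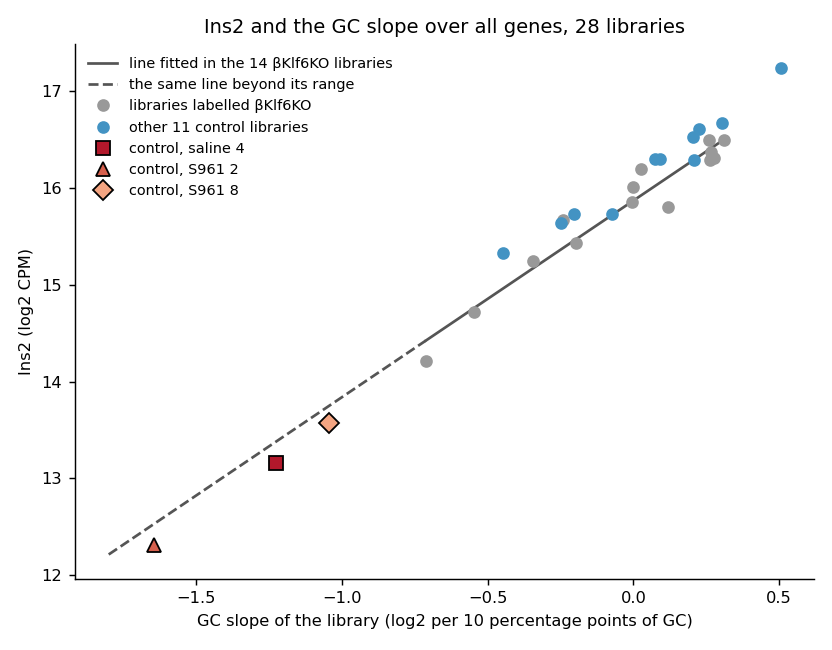
Ins2 (log2 CPM, vertical axis) against the GC slope of the library (log2 per 10 percentage points of GC, horizontal axis) for all 28 libraries, with the line fitted to the 14 βKlf6KO libraries. The 3 low-Ins2 control libraries lie left of all others, 0.18 to 0.22 below the extended line.

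The line of each gene on the slope in the βKlf6KO libraries was then extended to the 3 control libraries. Their slopes on that scale were -1.23, -1.65 and -1.04, outside the fitted range of -0.71 to 0.31, so the values on the line are extrapolated. For Ins2 the line gave 13.38, 12.53 and 13.75 log2 CPM in saline 4, S961 2 and S961 8, and the observed values were 0.22, 0.22 and 0.18 lower, with a residual SD of 0.17 among the βKlf6KO libraries. In the other controls the difference ran from 0.00 to 0.37, so the 3 were still the lowest. The line is fitted to Ins2 itself, so it takes up any loss of insulin RNA that goes with the slope. What share of the 2.44 to 3.70 by which Ins2 was low belongs to the slope was not tested. Ins1 differed from its line by 0.34, 0.34 and -0.47 (residual SD 0.60) and Iapp by -0.39, -0.04 and -0.43 (residual SD 0.15). The other controls ran from -0.45 to 1.04 for Ins1 and from -0.35 to 0.24 for Iapp. The Ins1 line was fitted in mice with 1 intact Ins1 allele, whereas the controls carry no Cre. Genotype and slope can therefore not be told apart in the distance of Ins1 from it.

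The other hormones differed from their lines by varying amounts. Gcg was 0.90 and 0.59 above in saline 4 and S961 2 and differed by -0.20 in S961 8 (residual SD 0.32). Sst was 1.37, 1.28 and 0.15 above (residual SD 0.18). Ppy differed by 1.14, 0.29 and -0.45 (residual SD 0.39) and Pyy by 0.27, -0.11 and -0.56 (residual SD 0.17). Klf6 differed by 0.26, -0.40 and 1.05 (residual SD 0.44). The other controls ran from -0.68 to 0.22 for Gcg, -0.44 to 0.28 for Sst and -1.51 to 0.84 for Ppy. They ran from -0.90 to 0.00 for Pyy and -0.84 to 0.22 for Klf6. Relative to these extended lines, saline 4 was thus above every other control for Gcg, Sst, Ppy, Pyy and Klf6. S961 2 was above them for Gcg and Sst, and S961 8 for Klf6. Across 13591 genes, the deviation on the line and the observed deviation had a Spearman correlation of 0.893, 0.921 and 0.794, with the same sign for 88.8, 90.4 and 84.2% of genes. Subtracting the line lowered the SD of the deviations from 1.04 to 0.465 in saline 4, from 1.29 to 0.531 in S961 2 and from 0.90 to 0.572 in S961 8. Genes wholly outside the range of the other controls then numbered 1105 above (8.13%) and 1583 below (11.6%).

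Among the genes farthest from their lines, chosen after their values were seen, were Wdfy1 and Ang. Wdfy1 stood at 5.82, 6.62 and 5.86 log2 CPM in saline 4, S961 2 and S961 8 against 3.14 to 5.97 in the other controls, within their range in saline 4 and S961 8, and it was 2.22, 3.28 and 2.15 above its line. Ang, which encodes the secreted ribonuclease angiogenin, stood at 4.97, 4.97 and 4.94 against 5.51 to 6.31 and was 1.37, 1.52 and 1.34 below its line. Rplp2, a ribosomal stalk protein, was below the other controls in level but 1.44, 1.27 and 0.95 above its line.

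The gene lists below were described by the number of members wholly above or below the other 11 controls, to be read beside 28.3% and 29.7% of all genes. Corrected counts are read beside 14.1% and 15.8%, and counts after subtraction of the line beside 8.13% and 11.6%. List counts with a library left out are read beside all-gene counts made the same way, out of 13591 genes. The all-gene counts were 3846 above and 4037 below with none left out. They were 4067 and 4260 without saline 4, 4100 and 4191 without S961 2, and 4642 and 4624 without S961 8. With the lower Ins2 limit used below they were 3275 and 3339. Members named for their position in lists of more than 12 were chosen after their values were seen, unless they were among the 4 of highest level.

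β-cell genes other than insulin went both ways. Of 25, 5 were above (G6pc2, Pcsk1, Sytl4, Prlr and Papss2) and 10 below, among them Mafa, Ucn3, Glp1r, Kcnj11 and Abcc8. G6pc2, an islet glucose-6-phosphatase, stood at 12.01, 12.53 and 12.00 log2 CPM against 11.01 to 11.86. The prohormone convertase Pcsk1 stood at 11.32, 12.01 and 11.23 against 10.35 to 11.04. Both are processing or metabolic genes of the β cell, and both were higher in the deposited values while insulin was lower. Neither was above all other controls after GC correction. G6pc2 lay -0.15, 0.14 and -0.06 from its line (other controls -0.36 to 0.32). Pcsk1 lay -0.04, 0.41 and -0.02 from its line (other controls -0.17 to 0.44). Ucn3, a peptide of mature β cells, stood at 7.68, 7.76 and 7.96 against 8.46 to 9.19. Mafa, an activator of insulin transcription, stood at -1.67, -2.72 and -2.13 against -0.73 to 4.20, and Kcnj11, a subunit of the ATP-gated potassium channel, at 4.17, 3.91 and 4.29 against 5.72 to 6.84. The glucose transporter Slc2a2 and the transcription factors Pdx1 and Nkx6-1 overlapped the other controls, with Pdx1 at 6.80, 7.17 and 6.84 against 6.76 to 7.13. After GC correction 2 were above (Pdx1 and Nkx6-1) and 7 below, with Iapp, Ucn3, Glp1r and Kcnj11 among them. After subtraction of the line 1 was above (Mafa) and 6 below. For Mafa the line gave -5.24, -7.22 and -4.37 log2 CPM in saline 4, S961 2 and S961 8. These values are under the 0.069 to 0.105 CPM that 3 reads came to, so its place above is not read as a rise. The observed Mafa levels were not far above that limit. The median deviation of the list was -0.22, 0.18 and -0.21, beside 0.06, 0.03 and 0.03 over all genes.

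Granule and exocytosis genes were more often low than high. Of 19, 2 were above and 10 below, and after subtraction of the line 1 and 4. Chga, the granule protein chromogranin A, stood at 10.75, 10.19 and 10.71 log2 CPM in saline 4, S961 2 and S961 8 against 11.77 to 13.08. Pcsk2, the second prohormone convertase, stood at 11.82, 12.01 and 11.85 against 12.30 to 12.74. Both were below all other controls, whereas Scg2 at 13.10, 13.27 and 13.00 overlapped their range (12.80 to 13.58). The carboxypeptidase Cpe was at 12.63, 13.05 and 12.42 against 12.04 to 12.54.

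Of the 11 α-cell genes, 2 were above (Irx2 and Smarca1) and 3 below (Irx1, Ttr and Slc38a5). The transcription factor Irx2 stood at 3.46, 3.90 and 3.14 log2 CPM against 2.49 to 3.10. Smarca1, a chromatin remodeller, stood at 7.39, 7.38 and 6.69 against 5.64 to 6.52. Both were lowest in S961 8 among the 3 libraries, as was Gcg. Without S961 8 the list had 5 above, while the count above over all genes rose from 3846 to 4642. With a lower Ins2 limit, which puts S961 8 among the other controls, 5 were above and none below. Ttr, a transport protein abundant in α cells, stood at 8.00, 7.31 and 7.74 against 9.06 to 10.13. After GC correction 3 were above, Irx2 among them, and 1, Ttr, below, and after subtraction of the line 2 were above and none below. The 6 δ- and PP-cell genes held 2 below (Ppy and Pyy) and none above, and none was outside the range after either correction.

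Of the 12 endocrine transcription factors, 4 were above (Neurod1, Insm1, Foxa2 and St18) and 1 below. Neurod1 stood at 8.51, 8.90 and 7.98 log2 CPM against 7.20 to 7.75, and Foxa2 at 6.24, 6.53 and 6.10 against 5.53 to 5.86. Pax6 and Isl1, which all islet cell types use, were above every other control in saline 4 and S961 2 only. Insm1, high in level, lay 0.01, 0.14 and -0.16 from its line, against -0.10 to 0.35 in the other controls. After subtraction of the line 1 was above and 2 below. The 6 dedifferentiation genes, among them Aldh1a3 and Neurog3, all overlapped the other controls. Of 18 proliferation genes 1 was above (Pcna) and 2 below (Mcm2 and Mcm3).

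Genes of the ER and the unfolded protein response went both ways. Of 21, 7 were above (Hspa5, Hsp90b1, Pdia3, Canx, Dnajb9, Dnajc3 and Atf6) and 4 below (Hyou1, Creld2, Herpud1 and Syvn1), and without S961 8 there were 11 above. Hspa5, the main ER chaperone, stood at 12.33, 12.68 and 12.16 log2 CPM in saline 4, S961 2 and S961 8 against 11.13 to 11.86. Pdia3, a disulfide isomerase, stood at 11.93, 12.39 and 11.59 against 10.58 to 11.43. Hspa5 was above the other controls after GC correction too (0.32, 0.68 and 0.40) and after subtraction of the line (0.58, 0.75 and 0.49, residual SD 0.11). The other controls themselves lay -0.02 to 0.43 from that line, so S961 8 was only just above them. After GC correction 5 of the list were above and none below, and after subtraction of the line 2 were above (Hspa5 and Sec61b) and none below. Under quantile normalization, however, none was above and 8 were below, so the direction of the list depended on the scaling.

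Genes of the ATF4 response, which acts when protein synthesis is restrained, were more often low. Of 22, 1 was above and 9 below, with 2 above without saline 4 or S961 2, and the median deviation was -0.72, -1.31 and -0.21. Ddit3 stood at 2.49, 1.64 and 2.90 log2 CPM against 3.45 to 4.33, and it stayed below all other controls after GC correction. It lay within 0.36 of its line (0.04, -0.36 and 0.25), which was fitted to its own levels. Atf4 itself stood at 8.40, 8.30 and 8.51 against 8.45 to 8.73. After GC correction 4 were above, Atf4 among them, and 3 below, and after subtraction of the line 3 and 2. No direction of this list held across the corrections.

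Immediate early genes, which are induced within minutes of a stimulus such as tissue handling, had none above and 3 below of 17, and 6 below without S961 8. After GC correction 5 were above (Jun, Klf2, Klf4, Zfp36 and Maff) and none below, and after subtraction of the line 2 were above (Jun and Ier2). Jun stood at 3.68, 3.11 and 4.24 log2 CPM against 3.40 to 4.14, and Fos at 2.45, 2.15 and 3.72 against 1.47 to 4.05. S961 8 had the highest of the 3 values for both, as for Klf6, Atf3 (2.94, 1.87 and 4.37 against 2.87 to 4.46) and Egr1 (3.52, 3.34 and 5.19 against 2.49 to 5.83). Fos and Egr1 of S961 8 were within the range of the other controls.

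Other stress lists mostly had members on both sides. Of 11 heat shock genes 4 were above (Hsp90aa1, Hsph1, Hspd1 and Hspe1) and 3 below, and after subtraction of the line 2 and 1. Hsp90aa1, a cytosolic chaperone, stood at 10.18, 10.54 and 10.26 log2 CPM against 9.14 to 9.60. Hspa1a and Hspa1b are nearly identical copies, so their separate levels are uncertain. Of 10 oxidative and metal stress genes 1 was above and 3 below. The metallothionein Mt1 differed among the 3 libraries, at 4.38, 2.11 and 5.48 against 4.78 to 7.62. Of 15 p53 and apoptosis genes 4 were above and 2 below, with Ccng1 at 9.58, 9.57 and 9.86 against 8.21 to 8.99. After subtraction of the line none of them was above and 1 was below. Of 14 hypoxia genes 2 were above and 5 below, and of 13 NF-κB and acute phase genes none was out of range. The 13 KLF genes had 3 above (Klf3, Klf7 and Klf9) and 3 below (Klf5, Klf15 and Klf16), and none was out of range after subtraction of the line. Klf3 stood at 6.24, 6.26 and 6.32 against 5.24 to 5.78.

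RNA of the mitochondrial genome was high and that of cytosolic ribosomal proteins low. All 9 measured mitochondrially encoded genes of 15 sought were above. Their summed level was 15.22, 15.51 and 15.10 log2 CPM in saline 4, S961 2 and S961 8 against 13.56 to 14.40, and mt-Co1 stood at 13.37, 13.79 and 13.21 against 11.81 to 12.47. These transcripts are poor in GC (median 35.8%). After GC correction 2 remained above, and after subtraction of the line none did, with a median distance from the line of 0.16, -0.01 and 0.21. Of 67 ribosomal protein genes, which have many near-identical copies, 5 were above (8 without S961 2) and 46 below, with a median deviation of -0.83, -1.11 and -0.57. GC correction left 42 below, while subtraction of the line left none below and 33 above, with a median distance of 0.06, 0.00 and 0.05. For the 4 of highest level all other controls lay below the line. Their distances were -0.45 to -0.12 for Rpl4, -0.65 to -0.18 for Rps4x, -0.90 to -0.04 for Rpl9 and -0.60 to -0.20 for Rpl7.

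Nuclear respiratory chain genes had 16 above and 36 below of 70, and 12 and 4 after subtraction of the line. Housekeeping genes, often used as references, had 4 above (Hprt, Tbp, B2m and Ywhaz) and 4 below, Gusb and Rplp0 among them, of 11. Hprt stood at 8.73, 9.0 and 8.54 log2 CPM against 7.42 to 8.10, and Rplp0 at 6.42, 5.48 and 6.80 against 7.77 to 9.65. Common reference genes thus lay on both sides of the other controls. Of 5 nuclear retained RNAs 1, Kcnq1ot1, was above and none below, with Malat1 at 4.61, 4.47 and 4.22 against 3.06 to 4.38.

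**Figure D5:**
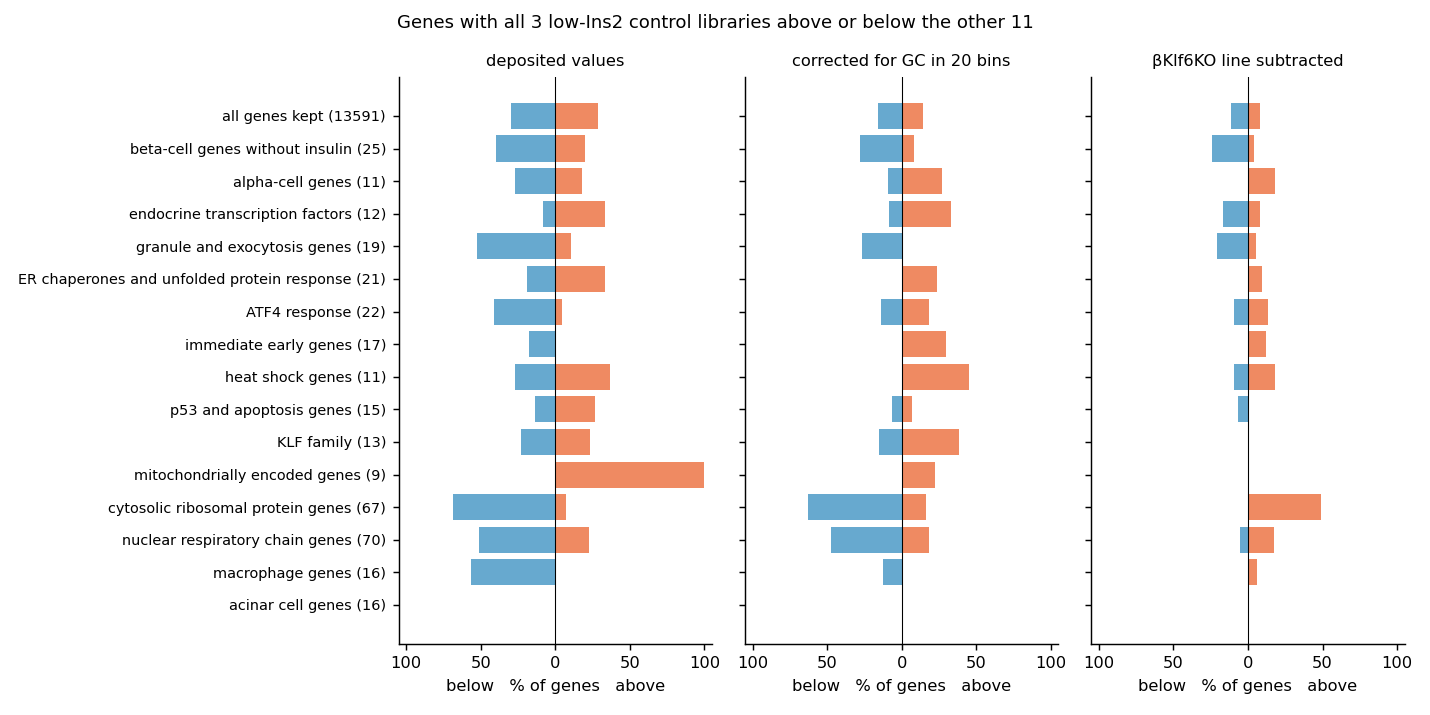
Percent of the members of each gene list that lie wholly above or wholly below the other 11 controls in the 3 low-Ins2 libraries (horizontal axis), for deposited values, after GC correction and after subtraction of the βKlf6KO line. The mitochondrially encoded genes go from 9 of 9 above to none. The ribosomal protein genes go from 46 of 67 below to none below and 33 above after subtraction of the line.

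Markers of other cells were not higher as a group in the 3 libraries. None of the 16 acinar genes was outside the range of the other controls in all 3 libraries. Their summed level was 14.41, 12.85 and 15.60 log2 CPM in saline 4, S961 2 and S961 8 against 14.01 to 15.73, so S961 2 had the least exocrine RNA of the 14 controls and S961 8 was near the top of the range. Of 9 ductal genes none was above and 2 below (summed level 9.70, 8.99 and 10.55 against 10.32 to 11.33). Of 14 fibroblast and stellate genes none was above and 1 below (7.67, 6.94 and 6.72 against 6.54 to 7.55), with saline 4 above the range. Of 12 endothelial genes 1 was above and 5 below (8.05, 7.78 and 7.41 against 7.14 to 7.88), again with saline 4 above the range. Of 16 macrophage genes none was above and 9 below (7.09, 7.14 and 7.30 against 7.24 to 8.27). Of 5 lymphocyte genes none was above and 1 below (1.08, 0.55 and 2.52 against 1.13 to 3.51), and of 5 Schwann cell genes none was above and 2 below (6.64, 6.63 and 6.51 against 6.74 to 7.06). After GC correction the counts above and below were none and 1 for ductal, 1 and none for endothelial and none and 2 for macrophage genes. Of the kept members of these lists, 1 lymphocyte gene had 0 reads in 1 of the 3 libraries, and no other was at 0. The part of these cells in the insulin result was not tested.

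The 3 libraries entered the study's group comparisons in the control groups. S961 against saline in control islets gave 0 of 13591 genes (0.0%) by limma with Benjamini-Hochberg adjustment, and 104 at an unadjusted p under 0.05. Without the 3 libraries it gave 0 again, and 158 unadjusted. The genes whose log2 difference moved most were Ppy, Msln, Ins1, Enho and Emilin1. The difference of Ppy went from -1.06 (SE 0.67) to -0.63 (SE 0.53) and that of Ins1 from -0.12 (SE 0.47) to 0.23 (SE 0.34).

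The genotype comparisons had more calls without them. After saline, 378 genes (2.78%) were called by limma, 284 higher and 94 lower in the libraries labelled βKlf6KO. Without the 3 control libraries 690 (5.08%) were called, 465 higher and 225 lower, and they held 371 of the 378. Of the 3, only saline 4 is in this comparison, and leaving it out alone gave 372. Leaving out S961 2, which is in neither saline group, gave 532. All 4 groups share 1 estimate of the spread, so the rise cannot be credited to saline 4. After S961, 593 (4.36%) were called, 320 higher and 273 lower, and without the 3 libraries 858 (6.31%), 502 higher and 356 lower, which held 398 of the 593. Under quantile normalization the split after S961 was 176 higher and 219 lower. Leaving out single libraries also moved these counts. After saline the count was 214, 230, 243 and 234 without control saline replicate 1, 2, 3 and 6, and 242, 217 and 214 without βKlf6KO saline replicate 3, 4 and 6. After S961 it was 216, 189 and 244 without control S961 replicate 2, 3 and 5, and 346, 177, 211 and 192 without βKlf6KO S961 replicate 5, 6, 7 and 8. Without control S961 replicate 8 it was 726.

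The insulin genes shifted most in the comparison that held S961 2 and S961 8. After S961, the log2 difference of Ins2 between βKlf6KO and control was 0.31 (SE 0.58, adjusted p = 0.752 by limma) with all libraries and -0.49 (SE 0.36, adjusted p = 0.449) without the 3, so its sign turned, with neither value past the threshold. Ins1 went from -0.31 (SE 0.44, adjusted p = 0.674) to -0.96 (SE 0.30, adjusted p = 0.0585). Ins2 thus averaged 15.34 ± 1.63 log2 CPM (SD, n = 8) in the S961 controls and 16.14 ± 0.71 (n = 6) without S961 2 and S961 8, beside 15.65 ± 0.82 (n = 8) in the S961 βKlf6KO libraries. Ptov1, Enho, Ppy and Rps15 were the other genes that moved most after S961. The difference of Ptov1 went from 0.51 (SE 0.63) to -0.36 (SE 0.40). After saline, which held saline 4, the genes that moved most were Ptov1, Rps15, Rpl8, Sycn and Enho, and Ins2 went from 0.21 (SE 0.66) to -0.32 (SE 0.41). Gcg and Iapp moved by at most 0.15 in each genotype comparison. Hspa5 after S961 went from -0.42 (SE 0.18, adjusted p = 0.175) to -0.16 (SE 0.12, adjusted p = 0.45). Across genes, the shift on leaving the 3 libraries out had a Spearman correlation with GC content of -0.83 after saline and -0.85 after S961, and of 0.70 for S961 in controls.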

How the data were processed

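The authors deposited 1 matrix of log2 CPM for 14219 genes in 28 islet libraries, 1 per mouse. Per the submitters' processing notes it was made with STAR 2.5.3a, HTSeq 0.9.1 and edgeR on GRCm38, with a strand setting not given in the sources used here. Antisense and overlapping genes can therefore not be separated. Values in the deposited log2 matrix gave whole reads within 0.05 for 100% of values when inverted as log2 of reads plus 0.5 over a scaled library size. In 86 within-group pairs of libraries, chi-square over degrees of freedom was at least 32.5, far over sampling noise. Every column matched 1 library title.

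The filter was 1 CPM or more in 6 or more libraries (13591 of 14219 genes). GC content, length and exon number were those of the longest GENCODE M21 transcript (14210 IDs found, 13584 kept genes with a GC value), and symbols that were missing or duplicated were taken from there. Deviations, GC correction in 20 bins and the lines on the GC slope were computed with numpy 2.4.6, pandas 2.3.3 and scipy 1.17.1 in Python 3.11.15. Group comparisons used limma 3.58.1 in R 4.3.3 on all 28 libraries in 4 groups, with empirical Bayes moderation, an intensity trend and Benjamini-Hochberg adjustment, two-sided, with a threshold of 0.05. All adjusted p-values of single genes are from limma. Correlations over βKlf6KO libraries had two-sided permutation tests, exact within 6 or 8 libraries and with 100000 resamples over 14, adjusted over 12 measures. The fits were tested on simulated data.

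The members, the 28 gene lists and the tests were chosen with earlier results of these data known. Named genes were 8 hormone and target genes, the 4 members of highest level in each list (or all where 12 or fewer were kept), the measures of the βKlf6KO family, the 10 widest gaps each way at a mean of at least 4 log2 CPM, and the 5 largest shifts per group comparison. Alternatives were quantile normalization, median centring, no filter or 5 CPM, GC with length, an Ins2 limit of 13.5, each library left out, lane and replicate number as covariates, and a floor of 1 CPM. Coding GC content, subtraction of the βKlf6KO lines and centring on lanes were added after seeing the data. Some genes and sequences are not reported here.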

Additional observations from a re-analysis of the deposited data

Results flagged for a closer look

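Of 48 groups of 6 or 8 libraries that were checked for a single value far from the rest, 3 had one, and chance gives about 1 in 20 groups. All 3 were control saline replicate 4 among the 6 saline controls. Its Ins2 level of 13.16 log2 CPM was the lowest of that group, with a gap of 0.733 of the group's range to the next value. That library was chosen for its low Ins2, so this value restates the choice and is no test. Its GC slope of -1.23 log2 per 10 percentage points, on the scale set by the βKlf6KO libraries, was the lowest by 0.669 of the range. Its Ddit3 level of 2.49 log2 CPM was the lowest by 0.847 of the range. Both measures went with Ins2 in the βKlf6KO libraries, with r = 0.970 for the slope and 0.857 for Ddit3, so the 3 values are not independent. In the S961 controls S961 2 and S961 8 are both low, so neither stands alone there.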

How the results depend on the processing

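The 3846 genes above and 4037 below the other controls became 1913 and 2148 with GC correction, 2031 and 2158 with GC and length, 2554 and 2482 with coding GC and 1105 and 1583 after subtraction of the βKlf6KO line. Leaving out 1 of the 3 libraries gave 4067 to 4642 above and 4191 to 4624 below. The GC-corrected Ins2 deviation moved with coding GC to -1.85 in saline 4 and -2.0 in S961 2. The Ins2 correlation with the GC slope in βKlf6KO libraries was 0.956 to 0.979 without single libraries. Genotype after saline gave 690 calls without the 3 libraries, 1369 with GC correction, 117 at 5 CPM and 214 to 532 without single libraries. Genotype after S961 gave 858, 2550, 395 with quantile normalization and 177 to 817. S961 in controls gave 0 calls throughout. Correlations with Ins2 that did not pass changed sign or passed in places, with p-values unadjusted. Iapp had -0.89 with quantile normalization (permutation p = 0.00271), -0.31 to 0.017 without single libraries (0.017 without βKlf6KO S961 replicate 1) and 0.42 centred on lanes, Gcg -0.49 with quantile normalization and -0.23 to 0.33 without single libraries (-0.23 without βKlf6KO S961 replicate 4), Klf6 0.094 within saline and 0.014 with quantile normalization, Malat1 0.32 within saline and 0.13 centred on lanes, and Actb -0.17 centred on lanes, 0.58 with quantile normalization (permutation p = 0.0245) and 0.56 without βKlf6KO saline replicate 5 (permutation p = 0.0477). Fos had 0.62 without βKlf6KO S961 replicate 3 (permutation p = 0.0238). The causes were not tested. Replicate numbers did not pair the libraries (same-number correlations -0.71 to 0.49), and with the replicate block the counts were 0, 354 and 614, with 391 unadjusted for S961 in controls. The GC correction rests on 1 transcript per gene, and the line was extended beyond its fitted slopes. At 3 members no difference from the other controls has a replicate test, and at the lowest levels 3 reads limit what can be seen.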
